A study of Mus musculus with 16 samples.

Results

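The sterol and fatty acid synthesis genes were 29 mouse genes, chosen by name from the gene lists of 3 count tables: 21 of the sterol branch and 8 of the fatty acid branch. Each table held one knockout experiment, and the tables listed 52636, 54532 and 52636 genes. All 29 genes were present in every table and passed the low-count filter in every experiment. The rule itself reads names and no measured values, and the names were chosen with earlier results of these data known. The level of each gene was compared between Cul4b knockout (KO) and wild-type (WT) small intestine, within each experiment.

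Sterol synthesis begins with acetyl-CoA, passes through mevalonate, isoprenoid units and squalene, and ends in cholesterol. Fatty acid synthesis draws on the same acetyl-CoA, which is carboxylated, elongated and desaturated. Both sets of genes are known targets of the sterol regulatory element binding proteins (SREBPs). SREBP-2, encoded by Srebf2, acts mainly on the sterol branch, and SREBP-1, encoded by Srebf1, acts mainly on the fatty acid branch. INSIG1 retains the SREBP precursors in the endoplasmic reticulum when sterol is plentiful. The intestinal epithelium both makes cholesterol and absorbs it from the diet, and its crypts hold the stem and progenitor cells that renew it.

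Messenger RNA was sequenced from 16 libraries of small intestine of C57BL/6 mice. CUL4B is the scaffold of a ubiquitin ligase. KO-IEC mice carried a floxed Cul4b allele (Cul4b fn/Y) and a Cre driven by the villin promoter, which is active in the intestinal epithelium, and their WT controls carried the floxed allele without that Cre. Crypts were released with EDTA from 4 WT and 4 KO-IEC samples, and organoids were grown in Matrigel from WT and KO-IEC crypts with 2 libraries each. KO-CAG organoids carried the floxed allele and a tamoxifen-inducible Cre under the ubiquitous CAG promoter, so that Cul4b was deleted in culture, and were compared with 2 WT organoid libraries of their own experiment. Whether those WT organoids carried the inducible Cre or received the inducer is not given in the sources used here. The methods call the libraries of a group biological replicates, without saying for the organoids whether each came from its own mouse, and give an age range for most experiments rather than for these libraries.

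Library totals ran from 9311734 to 13479974 counts in crypts, from 15006730 to 16881395 in the organoids of the KO-IEC experiment and from 7348191 to 10462275 in those of the KO-CAG experiment. Cul4b itself was lower in the KO libraries with log2 fold changes of -4.56 for crypts, -5.50 for KO-IEC organoids and -4.02 for KO-CAG organoids (edgeR quasi-likelihood test, adjusted p = 0.000169, 0.0311 and 1.93e-06). The 4 markers of epithelium were detected in every library. The crypt libraries differed in mitochondrial ribosomal RNA, which took 18.9 to 25.2 CPM (counts scaled to library size) in WT replicate 1 and KO-IEC replicates 1, 2 and 3, 834 CPM in the fourth WT library, 1078 CPM in the fourth KO-IEC library, and 2840 and 2873 CPM in WT replicates 2 and 3. The low class thus held 1 WT and 3 KO libraries, and the high class held WT libraries alone.

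Promoter sequence is shown for 4 sterol genes: Hmgcs1, which was the sterol gene with a match to the sterol regulatory element, and Acat2, Mvd and Lss, which were called lower in both crypts and KO-CAG organoids. RefSeq promoters (GRCm38.p6) matched 23 of the 29 genes, 17 of the sterol and 6 of the fatty acid branch. The sterol genes without an entry were Fdps, Fdft1, Sqle and Stard4. Some genes had several entries, and a gene was counted when any of its entries held a match. In the 250 bases before the start site, both strands were searched for the sterol regulatory element TCACCCCAC and its looser form TCACNCCAC, which includes it, for the NF-Y box CCAAT, for the Sp1 box GGGCGG and for the E-box CACGTG. The 200 bases before each start site are printed 5′ to 3′ on the gene's own strand, with matches to these letters on either strand in capitals. They lie at chr13:119690151-119690350 (+) for Hmgcs1, chr17:12960726-12960925 (-) for Acat2, chr8:122443423-122443622 (-) for Mvd and chr10:76531405-76531604 (+) for Lss.
Hmgcs1: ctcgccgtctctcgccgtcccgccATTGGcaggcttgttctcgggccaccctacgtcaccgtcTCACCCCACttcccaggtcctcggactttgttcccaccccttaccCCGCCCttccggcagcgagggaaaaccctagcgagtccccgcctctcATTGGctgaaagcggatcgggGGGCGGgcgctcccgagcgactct
Acat2: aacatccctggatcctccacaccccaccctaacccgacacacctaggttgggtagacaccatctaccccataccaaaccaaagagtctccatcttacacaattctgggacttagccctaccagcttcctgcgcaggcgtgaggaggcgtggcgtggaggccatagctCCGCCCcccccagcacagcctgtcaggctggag
Mvd: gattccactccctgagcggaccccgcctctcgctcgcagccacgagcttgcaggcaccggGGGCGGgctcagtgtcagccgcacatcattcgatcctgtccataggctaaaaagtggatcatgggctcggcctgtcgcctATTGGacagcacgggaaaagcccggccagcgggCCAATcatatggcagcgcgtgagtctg
Lss: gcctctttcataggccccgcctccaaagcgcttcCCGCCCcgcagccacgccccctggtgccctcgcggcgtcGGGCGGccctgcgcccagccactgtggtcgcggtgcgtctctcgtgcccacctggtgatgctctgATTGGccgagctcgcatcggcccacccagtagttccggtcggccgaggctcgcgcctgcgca

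The element TCACCCCAC begins 137 bases before the start site of Hmgcs1, and neither form was found in any other gene matched. Among 9202 genes that were tested in all experiments and had a promoter entry, 0.652% held TCACCCCAC and 1.25% held the looser form. CCAAT was present for 16 of 17 sterol genes (94.1%), with Acat2 the exception, against 40.9% of the tested genes. GGGCGG was present in 16 of 17, with Pmvk the exception, against 64.2%. Mvd holds CCAAT at 60 bases and at 27 bases before its start site, and Lss holds it at 62 bases. CACGTG was found for 4 of 17 sterol genes, Hsd17b7, Sc5d, Dhcr7 and Insig1, against 10.2% of the tested genes. For Dhcr7 the CCAAT and CACGTG matches lie in different entries. In the fatty acid branch CCAAT was found for 3 of 6 genes (Fasn, Me1 and Srebf1), GGGCGG for 3 of 6 (Acly, Me1 and Srebf1) and CACGTG for 0 of 6. For Me1 the CCAAT and GGGCGG matches lie in different entries. A match describes letters and is not evidence of binding, and the windows hold none of the sequence after the start site.

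The 3 experiments differed in their counts of called genes and also in their spread, with a biological coefficient of variation of 0.231 for crypts, 0.28 for KO-IEC organoids and 0.0815 for KO-CAG organoids. A gene was called when its Benjamini-Hochberg adjusted p over all tested genes was under 0.05 in edgeR's quasi-likelihood test. In KO-CAG organoids 13 of 21 sterol genes (61.9%) and 4 of 8 fatty acid genes were lower and 0 were higher, while 13.4% of all 13598 tested genes were lower, 18.1% were higher and 31.5% were called in either direction. In KO-IEC crypts 4 of 21 sterol genes were lower and 1 was higher, while 2.66% of 13427 tested genes were lower, 4.3% were higher and 6.96% were called in either direction. Scaled by library size alone, the crypt calls over all genes were 311 lower and 324 higher, against 357 and 577 with the main scaling, and the median over all genes went from -0.01 to -0.09 on the log2 scale. No fatty acid gene was called in crypts. In KO-IEC organoids 0 of the 29 genes were called, and 0.00717% of 13938 tested genes were, which was Cul4b alone. In one fit of all 16 libraries, with a shared estimate of the spread, the order was the opposite, with 8 sterol genes called in crypts and 3 in KO-CAG organoids, so these counts do not rank the effects.

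The median log2 fold change of the 21 sterol genes was -0.33 for KO-CAG organoids, -0.26 for crypts and 0.16 for KO-IEC organoids, beside medians over all tested genes of 0.00, -0.01 and -0.01. The 8 fatty acid genes had medians of -0.20, -0.14 and 0.31. The crypt median of the fatty acid genes was near 0 without WT replicate 4 (0.0012), without KO-IEC replicate 4 (-0.00086) and with the enterocyte markers as a covariate (0.0090), it was -0.05 without WT replicate 1, -0.06 without KO-IEC replicate 3 and -0.25 without KO-IEC replicate 1, and that of the KO-IEC organoids was 0.17 without KO replicate 2. Sterol genes had a negative log2 fold change in 19 of 21 cases in KO-CAG organoids, in 18 of 21 in crypts and in 2 of 21 in KO-IEC organoids. These are bulk libraries, in which fewer cells of a type and less RNA per cell cannot be told apart.

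**Figure D1:**
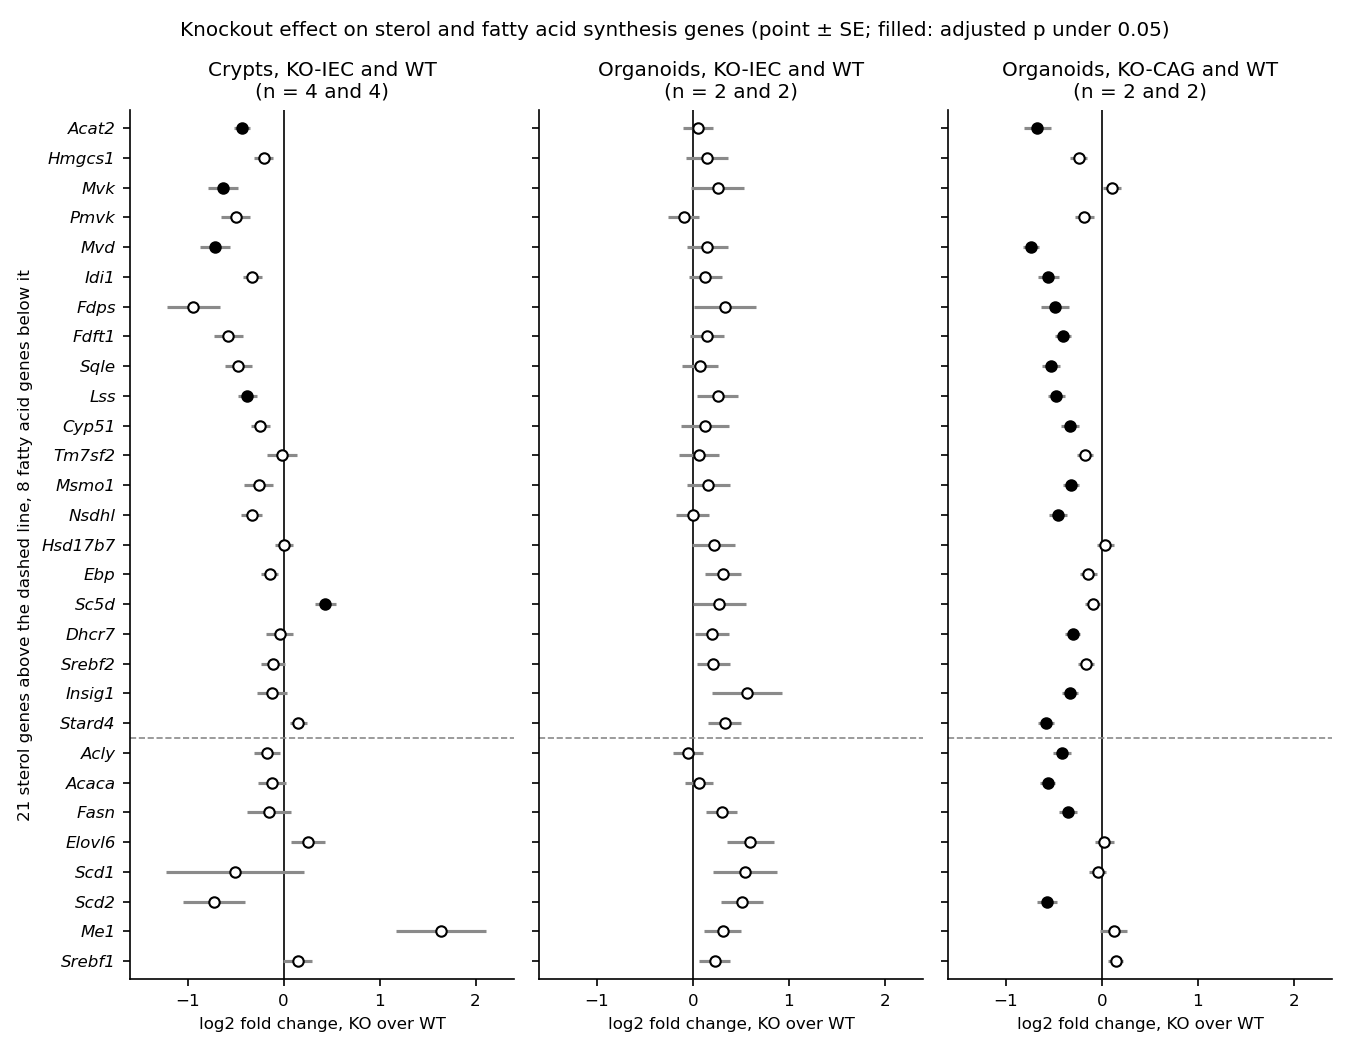
Log2 fold change of each of the 29 genes, KO over WT, for the crypts and for both kinds of organoid, with the standard error as a horizontal bar and filled points for adjusted p under 0.05. In KO-CAG organoids 17 points are filled and all lie left of 0, in crypts 5 points are filled with Sc5d to the right, and in KO-IEC organoids none is filled.

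Of 7 enzymes that act between acetyl-CoA and farnesyl pyrophosphate, 4 were called lower in KO-CAG organoids, against 13.4% of all tested genes. The set does not hold every enzyme of this stretch. The largest change was that of Mvd (mevalonate diphosphate decarboxylase, ENSMUSG00000006517). Its level was 153 and 163 CPM in WT and 90.8 and 98.5 CPM in KO-CAG organoids, so that both KO libraries lay far below both WT libraries. The log2 fold change of Mvd was -0.74 ± 0.08 (SE, adjusted p = 0.000188), so that its level fell by 40.0%. Acat2, the cytosolic thiolase that joins acetyl-CoA units, was measured at 219 and 208 CPM in WT and at 109 and 158 CPM in KO-CAG organoids. Its KO libraries differed from each other more than its WT libraries did, and its log2 fold change was -0.67 ± 0.14 (SE, adjusted p = 0.00575). Acat2 has a near-identical neighbour on the same chromosome, so the split of its reads is uncertain.

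Idi1, the isomerase of the isoprenoid unit, was measured at 160 and 185 CPM in WT and at 106 and 127 CPM in KO-CAG organoids (log2 fold change -0.56 ± 0.11, SE, adjusted p = 0.00354). Fdps, which makes farnesyl pyrophosphate, had the lowest level of the 21 sterol genes in the KO-CAG experiment, 20.8 and 22.4 CPM in WT and 15.3 and 15.6 CPM in KO, and was called lower (log2 fold change -0.48 ± 0.14, SE, adjusted p = 0.0281). Hmgcs1, the cytosolic HMG-CoA synthase, was measured at 375 and 405 CPM in WT and at 320 and 339 CPM in KO-CAG organoids. Both KO libraries of Hmgcs1 were below both WT libraries, but its log2 fold change of -0.24 missed the threshold (adjusted p = 0.0642). The kinases on either side of mevalonate phosphate did not pass: Pmvk had a log2 fold change of -0.18 (adjusted p = 0.196) and Mvk one of 0.11 (adjusted p = 0.389). Mvk was the enzyme of this stretch whose KO-CAG libraries, 71.5 and 67.0 CPM, were both above WT, 61.6 and 66.6 CPM.

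Among the members that make squalene or act after it, 7 of 11 enzymes were lower in KO-CAG organoids and 0 were higher. The share of all tested genes called lower there was 13.4%. Sqle, the squalene epoxidase and a control point of the pathway, had 310 and 321 CPM in WT and 204 and 233 CPM in KO libraries (log2 fold change -0.53 ± 0.09, SE, adjusted p = 0.00201). Lss, the cyclase that forms lanosterol, had 226 and 244 CPM in WT and 160 and 178 CPM in KO libraries (log2 fold change -0.47 ± 0.09, SE, adjusted p = 0.00301). For both enzymes the gap between genotypes exceeded the gap within either genotype. The other called enzymes were Nsdhl, Fdft1, Cyp51, Msmo1 and Dhcr7, with log2 fold changes of -0.45, -0.41, -0.33, -0.33 and -0.30 and adjusted p from 0.0045 to 0.026. Fdft1 makes squalene, Cyp51 removes a methyl group from lanosterol, Msmo1 and Nsdhl act in the removal of further methyl groups, and Dhcr7 reduces a ring double bond at a late step. Tm7sf2, Ebp, Sc5d and Hsd17b7 did not pass, with log2 fold changes of -0.18, -0.14, -0.09 and 0.04.

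Among the regulators and carriers, Stard4 and Insig1 were lower in KO-CAG organoids and Srebf2 was not called. Stard4, a carrier that moves cholesterol between membranes, was measured at 456 and 428 CPM in WT and at 298 and 293 CPM in KO-CAG organoids (log2 fold change -0.58 ± 0.09, SE, adjusted p = 0.000824). Insig1 was measured at 456 and 474 CPM in WT and at 371 and 369 CPM in KO (log2 fold change -0.33 ± 0.09, SE, adjusted p = 0.0147). Srebf2 was measured at 404 and 420 CPM in WT and at 379 and 357 CPM in KO (log2 fold change -0.17, adjusted p = 0.174). The KO-CAG libraries all lay below the WT libraries for 19 of the 21 sterol genes, including Srebf2 and 5 other genes that were not called. The same held for 34.2% of all tested genes.

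**Figure D2:**
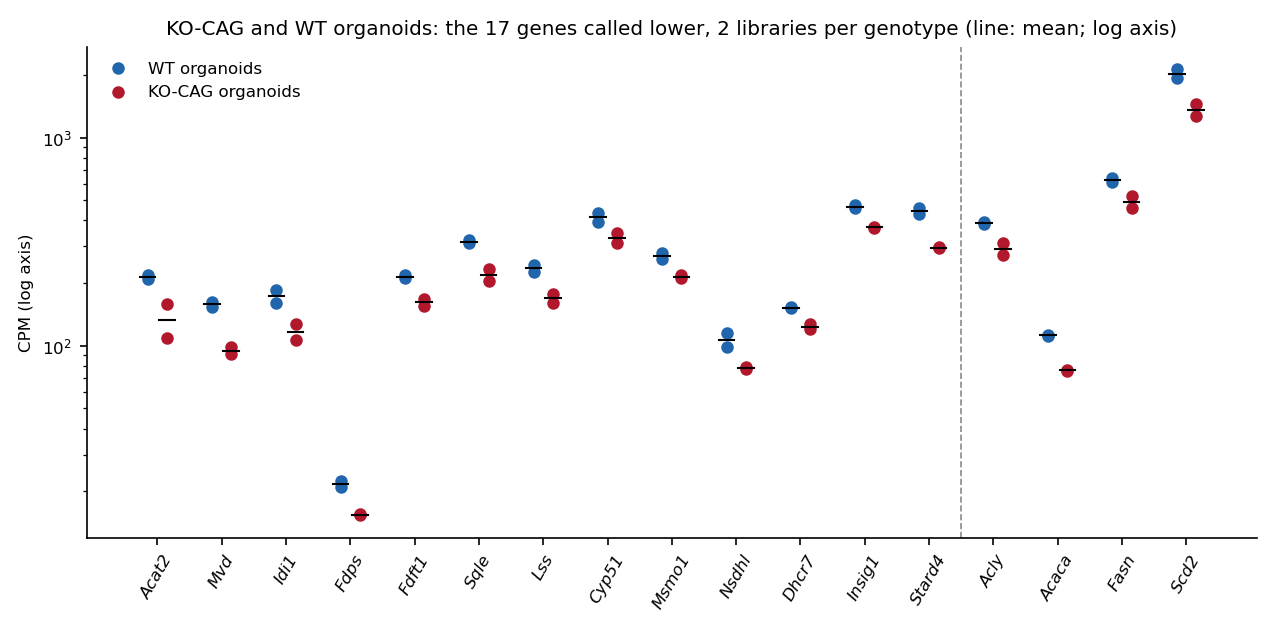
CPM, on a log axis, of the 17 genes called lower in KO-CAG organoids, with 2 WT and 2 KO libraries per gene as points and the mean as a line. The sterol genes stand left of the dashed line and the 4 fatty acid genes right of it, and the points of the 2 genotypes do not overlap for any of the 17 genes.

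Of the 8 fatty acid genes, Acaca, Scd2, Acly and Fasn were lower in KO-CAG organoids. Acaca, the acetyl-CoA carboxylase that makes malonyl-CoA, had nearly equal values within each genotype, 112 and 113 CPM in WT and 76.3 and 75.9 CPM in KO (log2 fold change -0.56 ± 0.08, SE, adjusted p = 0.000604). Scd2, a stearoyl-CoA desaturase, was the most abundant gene of both branches by CPM, with 1927 and 2126 CPM in WT and 1272 and 1451 CPM in KO (log2 fold change -0.57 ± 0.10, SE, adjusted p = 0.00229). Acly, which releases acetyl-CoA from citrate, had 394 and 386 CPM in WT and 273 and 312 CPM in KO (log2 fold change -0.41 ± 0.09, SE, adjusted p = 0.00761). Fasn, the fatty acid synthase, had 637 and 611 CPM in WT and 456 and 522 CPM in KO (log2 fold change -0.35 ± 0.10, SE, adjusted p = 0.020). The 4 genes that were not called had log2 fold changes near 0: Scd1 -0.04, Elovl6 0.03, Me1 0.12 and Srebf1 0.15. Scd1 and Elovl6 overlapped between the genotypes, and both KO libraries of Srebf1, 218 and 226 CPM, were above WT, 202 and 199 CPM.

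No member reached a 2-fold change among these calls. With the spread estimated over all 16 libraries in one fit, 3 sterol genes (Acat2, Idi1 and Stard4) and 0 fatty acid genes were called in KO-CAG organoids. Without WT replicate 2 of that experiment 7 sterol genes were called.

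In KO-IEC crypts the genes called lower were Acat2, Mvk, Mvd and Lss. Acat2 was measured at 70.9, 70.6, 62.4 and 59.3 CPM in WT and at 49.6, 46.6, 49.4 and 49.3 CPM in KO-IEC crypts, with no overlap (log2 fold change -0.43 ± 0.09, SE, adjusted p = 0.0407). Mvd was measured at 70.1, 56.4, 53.0 and 42.5 CPM in WT and at 28.0, 34.4, 34.5 and 37.8 CPM in KO-IEC crypts (log2 fold change -0.72 ± 0.16, SE, adjusted p = 0.0429). The lowest WT library and the highest KO library of Mvd were both numbered 4, and the groups did not overlap. Mvk, mevalonate kinase, was measured at 41.5, 37.1, 32.9 and 38.3 CPM in WT and at 20.1, 24.4, 20.4 and 31.6 CPM in KO-IEC crypts (log2 fold change -0.63 ± 0.16, SE, adjusted p = 0.0475). KO-IEC replicate 4 was again the KO library nearest to WT. Lss was measured at 57.3, 50.8, 45.7 and 51.8 CPM in WT and at 39.3, 35.8, 42.4 and 40.8 CPM in KO-IEC crypts (log2 fold change -0.38 ± 0.10, SE, adjusted p = 0.0499). The calls of Acat2 and Mvd held under 6 of 9 other settings, that of Mvk under 5 and that of Lss under 4. With 1 library left out, the calls of Acat2 and Mvd held in 3 of 8 fits, that of Mvk in 2 and that of Lss in 1.

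Sc5d, a sterol desaturase of a late step, was called in the opposite direction in crypts. It was measured at 79.2, 83.9, 69.9 and 81.2 CPM in WT and at 87.7, 107.1, 115.9 and 114.0 CPM in KO-IEC crypts (log2 fold change 0.44 ± 0.11, SE, adjusted p = 0.0494). Its lowest KO library was replicate 1, a little above the highest WT library. The call of Sc5d held under 2 of 9 other settings and without WT replicate 4 or KO-IEC replicate 1, and was lost without any other single library, with DESeq2 size factors, library size or no low-count filter, in one fit of all 16 libraries, with the replicate block and with either covariate. With the enterocyte markers as a covariate its log2 fold change was 0.20. Other sterol genes with a large change missed the threshold: Fdps at -0.94, Fdft1 at -0.58, Pmvk at -0.50, Sqle at -0.47, Nsdhl at -0.33 and Idi1 at -0.33 on the log2 scale, with adjusted p from 0.0523 to 0.0756. For Sqle the WT libraries were 117, 108, 109 and 106 CPM and the KO-IEC libraries 78.4, 72.2, 63.1 and 102 CPM, so that the groups did not overlap and replicate 4 stood apart from the other 3 KO libraries. Fdps was read at 1.59 to 5.55 CPM in crypts, the lowest level of the 21 sterol genes there. The regulators Srebf2, Insig1 and Stard4 had log2 fold changes of -0.12, -0.12 and 0.15, with overlapping groups. KO-IEC libraries all lay below WT libraries for 8 of 21 sterol genes, against 8.79% of all tested genes.

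**Figure D3:**
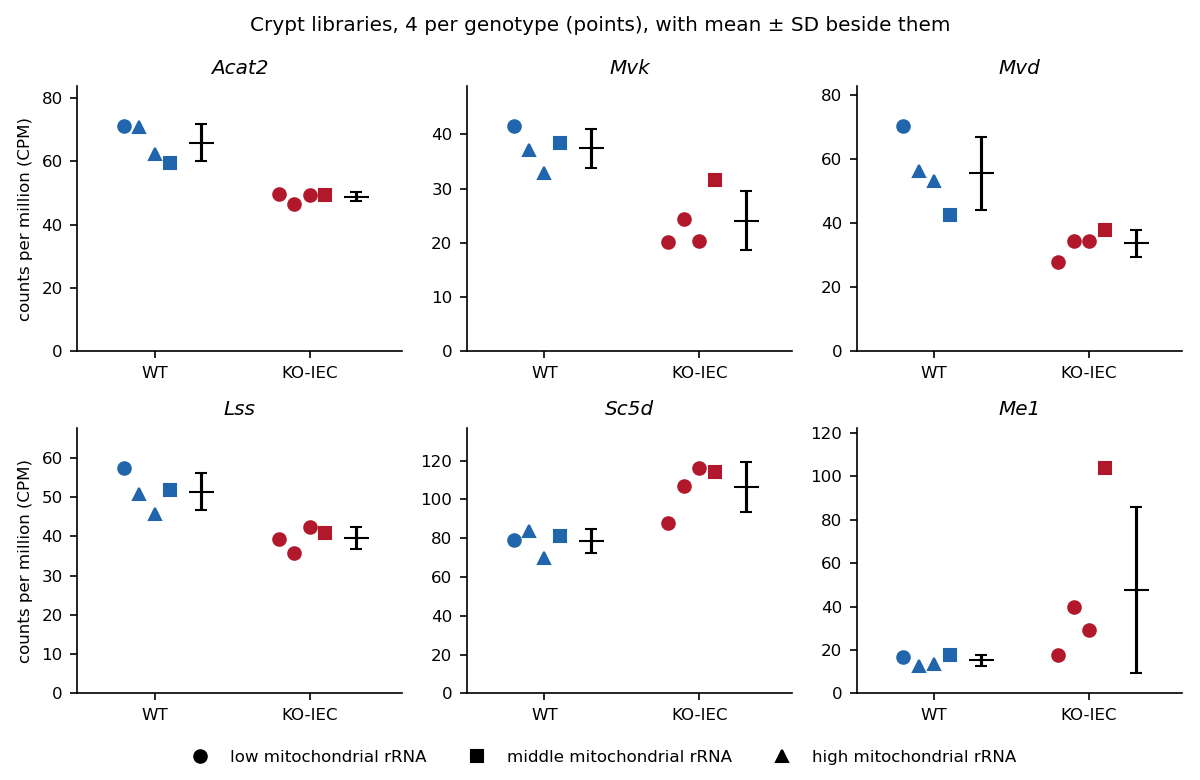
CPM of Acat2, Mvk, Mvd, Lss, Sc5d and Me1 in 4 WT and 4 KO-IEC crypt libraries, with marker shapes for the class of mitochondrial ribosomal RNA and the mean ± SD beside each group. The genotypes do not overlap in any of the 6 panels, and the square KO point, replicate 4, is the highest KO value for Mvk, Mvd and Me1.

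The crypt calls moved with single libraries, as did the calls over all genes. Without WT replicate 1, 2 or 3 no sterol gene was called, and 20, 3 and 11 genes were called in all. Without KO-IEC replicate 2 or 3 no sterol gene was called either, and 2 genes were called in all each time. Without WT replicate 4 and without KO-IEC replicate 1, 5 sterol genes were called each time, among 1864 and 2468 genes in all. Without KO-IEC replicate 4, 7 sterol genes were called lower (Acat2, Fdft1, Fdps, Msmo1, Mvd, Mvk and Sqle), among 513 genes in all. DESeq2's Wald test called 9 sterol genes lower and 1 higher in crypts, among 2457 genes in all. Of the sterol genes, only Acat2 and Mvd were called with DESeq2 size factors in edgeR, among 790 genes in all. When the mitochondrial ribosomal RNA class was added to the model, 0 sterol genes and 2 genes in all were called, and when the enterocyte markers were added, 0 sterol genes and 1 gene in all. The median log2 fold change of the sterol genes was -0.23 and -0.36 with these 2 covariates. Among the libraries of the low class, 18 of 21 sterol genes were lower in the mean of 3 KO libraries than in the single WT library, with a median difference of -0.40 log2 CPM. That library, WT replicate 1, had the highest sterol median of the WT crypts. It was 0.13 log2 above the WT mean, against -0.03, -0.03 and -0.01 in WT replicates 2, 3 and 4. The size of the low-class difference therefore depends on that library. Within the middle class, KO-IEC replicate 4 was below WT replicate 4 for 11 of 21, with a median of -0.05. The high class held no KO library.

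**Figure D4:**
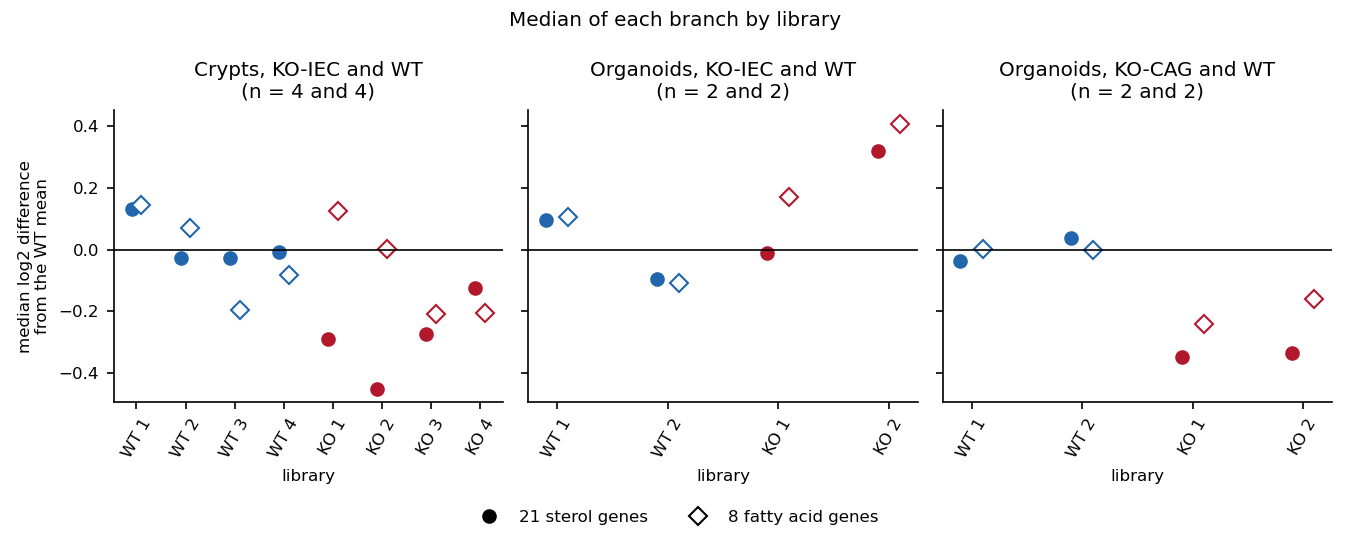
Median over the 21 sterol genes (filled circles) and the 8 fatty acid genes (open diamonds) of the log2 CPM difference from the WT mean, for each library of the 3 experiments. The sterol medians of the 4 KO-IEC crypt libraries, -0.45 to -0.12, lie below those of the 4 WT libraries, -0.03 to 0.13, and KO-IEC organoid replicate 2 stands highest of its experiment.

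The fatty acid branch in crypts gave no call. Me1, the cytosolic malic enzyme that supplies NADPH, had the largest log2 fold change of the 29 genes, 1.64 ± 0.47 (SE, adjusted p = 0.0596). It was measured at 17.0, 12.5, 13.7 and 17.8 CPM in WT and at 17.9, 40.0, 29.1 and 103.7 CPM in KO-IEC crypts. All 4 KO libraries were above WT, but replicate 1 exceeded the highest WT library by a small margin and replicate 4 was far above the rest. Without KO-IEC replicate 4 the log2 fold change of Me1 was 0.94, and with the enterocyte markers as a covariate it was 0.80. Me1 was called higher by DESeq2's Wald test (adjusted p = 0.00304). Scd2 was measured at 259, 202, 134 and 114 CPM in WT and at 151, 93.9, 59.4 and 125 CPM in KO-IEC crypts, with overlap (log2 fold change -0.73 ± 0.32, SE, adjusted p = 0.153). Acly, Acaca and Fasn had log2 fold changes of -0.17, -0.12 and -0.15, and Elovl6 and Srebf1 of 0.26 and 0.15, all with overlapping groups. Scd1 was nearly undetected in crypts, at 0.106 to 3.62 CPM, where 3 counts correspond to 0.223 to 0.322 CPM.

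In KO-IEC organoids the values leaned upward without a call. The sterol genes had a positive log2 fold change in 19 of 21 cases and the fatty acid genes in 7 of 8. Elovl6, which elongates palmitate, was measured at 208 and 142 CPM in WT and at 289 and 241 CPM in KO-IEC organoids, the largest log2 fold change of the experiment among the 29 genes (0.60 ± 0.25, SE, adjusted p = 0.856). Insig1 was measured at 683 and 621 CPM in WT and at 637 and 1299 CPM in KO-IEC organoids, and Scd1 at 759 and 589 CPM in WT and at 706 and 1265 CPM in KO. For both genes KO replicate 1 lay within the WT range and replicate 2 was well above the other 3 libraries. Scd2 was measured at 3713 and 2779 CPM in WT and at 4504 and 4761 CPM in KO (log2 fold change 0.51 ± 0.22, SE, adjusted p = 0.856). KO libraries all lay above WT libraries for 4 of 21 sterol genes and 6 of 8 fatty acid genes, against 19.4% of all tested genes. Mvd, Acat2 and Lss, called lower in both other experiments, had log2 fold changes of 0.15, 0.05 and 0.26 here. Without KO-IEC replicate 2 the sterol median was -0.01, and without KO-IEC replicate 1, which leaves 1 KO library that is assumed to vary like the WT libraries, Insig1, Sc5d and Scd1 were called higher among 2322 genes called in all. In this experiment 650 genes had an unadjusted p under 0.05, none of them a member, and DESeq2's Wald test called 26 genes and 0 members.

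Whether the knockout effect differed between experiments was tested as an interaction over all 16 libraries and 15585 genes. The experiment, the Cre driver and the tissue or culture change together between them and cannot be told apart. None of the 29 genes was called for any of the 3 differences, where 0.372% of genes were called for crypts minus KO-CAG organoids, 0.385% for KO-IEC organoids minus KO-CAG organoids and 0.00642% for crypts minus KO-IEC organoids. At an unadjusted p under 0.05 the 3 differences held 4, 10 and 10 of the 29 genes, and 2252, 1699 and 1084 of all genes. Fitted alone, the KO-IEC organoids had a sterol median of 0.16, and of -0.01 without KO-IEC replicate 2, so their side of a difference leans on 1 library. For KO-IEC minus KO-CAG organoids the difference was positive for every sterol gene, from 0.11 to 0.93 on the log2 scale, with a median of 0.51. Stard4 came nearest to the threshold (difference 0.93 ± 0.19, SE, adjusted p = 0.0522), and it passed with DESeq2 size factors (adjusted p = 0.0445), with library size alone (adjusted p = 0.0449) and with at least 10 counts in every library (adjusted p = 0.0419). For crypts minus KO-CAG organoids Stard4 had a difference of 0.74 ± 0.16 (SE, adjusted p = 0.0708) and Mvk one of -0.73 ± 0.28 (SE, adjusted p = 0.253). For crypts minus KO-IEC organoids the median over the sterol genes was -0.43, and Mvd had a difference of -0.88 ± 0.25 (SE, adjusted p = 0.492).

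The levels of the genes were also read per length. Per kilobase of gene length, Fdps was the lowest sterol gene in WT crypts, at 1.09 RPKM (reads scaled to gene length and library size), and Srebf2 was the highest, at 45.3 RPKM. In WT organoids of the KO-CAG experiment the same measure ran from 5.14 RPKM for Fdps to 150 RPKM for Insig1. Scd1 was at 0.340 RPKM in WT crypts and at 57.7 and 139 RPKM in WT organoids of the KO-CAG and KO-IEC experiments, and Scd2 was at 32.6, 372 and 595 RPKM. These levels come from tables scaled separately and were not tested against each other. Scd1 and Scd2 are close relatives within a gene cluster, and reads could be split between its members.

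Other genes of lipid handling were read from a list of 36 that includes the SREBP processing machinery, the sterol exporters that are known targets of the liver X receptors (LXR), and further fatty acid enzymes. In KO-CAG organoids 33 were tested, of which 6 were higher and 13 were lower. Over all tested genes 18.1% were higher and 13.4% were lower, so the count of higher genes was near that share. All 4 called genes of the 7 in the LXR group were higher. The transporter subunits Abcg5 and Abcg8, which return sterol to the gut lumen, had log2 fold changes of 1.13 ± 0.10 (SE, adjusted p = 5.18e-05) and 0.91 ± 0.12 (SE, adjusted p = 0.000504). Abcg5 ranged from 97.7 to 99.4 CPM in WT and from 195 to 237 CPM in KO-CAG organoids. Abca1, which exports cholesterol to lipoprotein particles, rose by 1.47 on the log2 scale from 6.09 to 8.07 CPM in WT to 15.4 to 24.6 CPM in KO-CAG organoids (adjusted p = 0.00189). Abcg1 was also called higher but lay at 0.482 to 0.518 CPM in WT, close to the level of 3 counts. Of the 11 other sterol and isoprenoid genes of the list, 2 were higher and 5 were lower. The 2 higher genes were Soat2, which esterifies cholesterol, and Npc1l1, which takes it up from the lumen. Their log2 fold changes were 1.12 and 0.71.

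The genes called lower in KO-CAG organoids included 7 of the 11 tested in the further fatty acid list, against 13.4% of all tested genes. Fads1 and Fads2, the desaturases of polyunsaturated fatty acids, had log2 fold changes of -1.03 and -0.64, and Acss2, which makes acetyl-CoA from acetate, one of -0.80. Gpam, Lpin1, Acsl3 and Mlxipl had log2 fold changes of -0.55, -0.54, -0.50 and -0.42. Of the 4 processing genes, Mbtps2, a protease of the SREBPs, was lower at -0.45. In crypts 32 of the list were tested, of which Npc1 was higher (0.66) and Fads1 (-0.64), Tmem97 (-0.54) and Fads2 (-0.48) were lower. Over all tested crypt genes 4.3% were higher and 2.66% were lower. In KO-IEC organoids 0 of 33 were called. Fads1, Fads2 and Tmem97 were thus called lower in both crypts and KO-CAG organoids. The share of all genes called lower in both was not counted, and the crypt calls over all genes moved with single libraries.

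**Figure D5:**
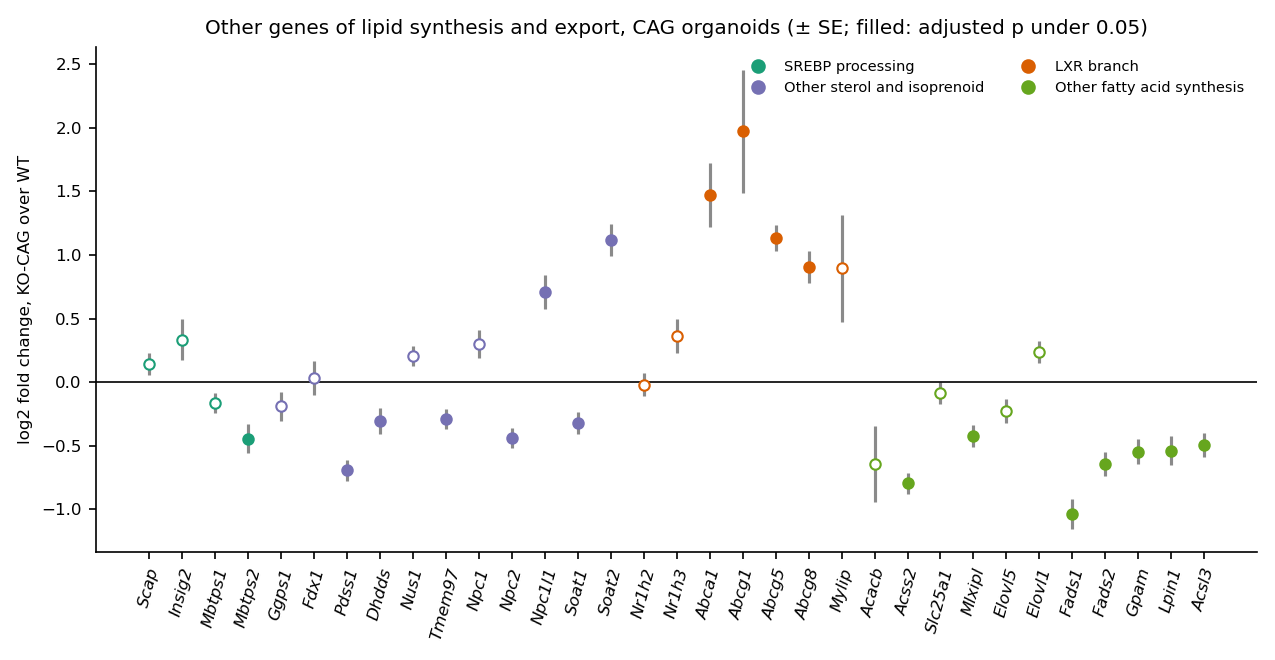
Log2 fold change (± SE) in KO-CAG over WT organoids of the 33 tested genes of the list beside the 29 members, coloured by group, with filled points for adjusted p under 0.05. The called LXR genes lie between 0.91 and 1.97, and the called genes of further fatty acid synthesis lie between -1.03 and -0.42.

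Markers of cell types moved in the same comparisons. Over all tested genes, 18.1% were called higher and 13.4% lower in KO-CAG organoids, and 4.3% and 2.66% in crypts. In KO-CAG organoids 9 of 10 enterocyte markers were called higher, and their summed level was 5118 to 5530 CPM in WT and 11467 to 14622 CPM in KO. All 6 goblet cell markers and all 6 enteroendocrine markers were also higher there, summing to 5001 to 5248 and 805 to 845 CPM in WT and to 7681 to 8230 and 2061 to 2136 CPM in KO. Of 6 Paneth cell markers 5 were higher, with sums of 4927 to 5360 CPM in WT and 8214 to 8779 CPM in KO. Of 7 stem cell markers Lgr5, Smoc2 and Slc12a2 were lower, with sums of 4543 to 5177 CPM in WT and 3661 to 4202 CPM in KO, and of 7 proliferation markers Mki67 and Top2a were lower. In crypts 1 of 10 enterocyte markers was called higher (Apob), with sums of 2417 to 10285 CPM in WT and 9303 to 21325 CPM in KO, and of 7 stem cell markers Lgr5 and Ascl2 were lower, with sums of 2077 to 3104 CPM in WT and 1378 to 2150 CPM in KO. In KO-IEC organoids no marker was called, and the stem cell sums were 3360 to 4749 CPM in WT and 593 to 2209 CPM in KO. No marker of these lists was at 0 in these libraries. The part of the cell mixture in the lower sterol and fatty acid levels, or in the higher levels of the LXR group, was not tested.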

How the data were processed

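Gene counts were deposited by the authors as 3 tables of raw counts per gene, with a gene length column that was used for RPKM. The submitters' processing notes name HISAT2 2.0.5 and featureCounts 1.5.0-p3, and the strand setting and genome build are not given in the sources used here. Gene coordinates and symbols were taken from the tables, and promoters from RefSeq (GRCm38.p6). Without a known strand setting, reads of overlapping antisense genes cannot be told apart from those of a gene.

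Each experiment was fitted apart in R 4.3.3 with edgeR 4.0.16 (filterByExpr, TMM, quasi-likelihood F test, two-sided, p-values adjusted by Benjamini-Hochberg over all tested genes). CPM are TMM-scaled, except the floors and the mitochondrial ribosomal RNA, which are relative to the library total. Log2 CPM used a prior count of 2, and a floor is 3 counts in a library, which covers counting error only. The classes of mitochondrial ribosomal RNA have bounds at 100 and 2000 CPM. Groups came from the labels. The method was tested on simulated counts. Alternatives were DESeq2 1.42.0 size factors and Wald test, library size scaling, dropping the filter on low counts or raising it to 10 counts in each library, the replicate number as a block, 1 fit of all 16 libraries, an added fold change of 2, 2 covariates in crypts, and leaving out each library. The smallest chi-square per degree of freedom between libraries of a group was 4.03, so none was the same library sequenced again. It cannot tell whether libraries of a group came from the same mouse or organoid line.

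All 29 members could be named; other genes were named where they were called or belonged to a list counted in the text. The members, gene lists and classes were chosen with earlier results of these data known. One gene of the lists is not reported here. No read data were analysed here.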

Additional observations from a re-analysis of the deposited data

Results flagged for a closer look

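In the crypt groups of 4, each member was searched for a library whose gap to its nearest neighbour was large against the range of the group (Dixon's criterion), over 58 combinations of gene and group, of which chance flags about 1 in 20. It marked 4 values. Msmo1 in KO-IEC replicate 4 was 92.4 CPM, where the other KO libraries were 57.6, 59.2 and 61.3 CPM. Hmgcs1 in KO-IEC replicate 4 was 175 CPM, where the others were 156, 157 and 159 CPM. Acat2 in KO-IEC replicate 2 was 46.6 CPM, below 49.3 to 49.6 CPM in the others. Scd1 in WT replicate 4 was 3.62 CPM, above 0.716 to 1.20 CPM in the others. Of these genes, Msmo1 was called lower in edgeR's test without KO-IEC replicate 4 (log2 fold change -0.44, adjusted p = 0.0440). That library was marked for this same gene, so the call is no separate evidence. With all crypt libraries Msmo1 was not called (log2 fold change -0.26, adjusted p = 0.263) and its groups overlapped.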

How the results depend on the processing

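In crypts, where 5 sterol genes were called, 2 were called with DESeq2 size factors, 10 with DESeq2's Wald test, 8 in one fit of all 16 libraries, and 0 with a 2-fold threshold, with the class of mitochondrial ribosomal RNA or with enterocyte markers as a covariate. Leaving out 1 library gave 0 to 7. Against 934 crypt genes called in all, the counts were 1479 without the low-count filter, 2457 with the Wald test, 1659 in one fit, 240 with the 2-fold threshold, 2 and 1 with the covariates, and 2 to 2468 leaving out 1 library. The 0 fatty acid calls in crypts became 1 (Me1, higher) without the filter, with the Wald test and in one fit, and 0 to 1 leaving out 1 library. With the replicate block, 0 sterol genes and 4 genes in all were called in crypts. The replicate numbers were not shown to pair the samples, since same-numbered crypt libraries deviated with correlations of -0.04, 0.19, -0.40 and 0.43, the KO-IEC organoids with 0.34 and the KO-CAG organoids with 0.07. The replicate block moved no other count by over 1.5 times.

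In KO-CAG organoids, one fit called 3 sterol genes, 0 fatty acid genes and 477 genes in all, and the 2-fold threshold called 0, 0 and 1169. The Wald test called 2761 genes in all. Leaving out 1 library gave 7 to 15 sterol genes and 2789 to 5177 in all. In KO-IEC organoids, 223 genes were called without the filter, 26 by the Wald test and 18 in one fit, against 1, and leaving out 1 library gave 0 to 2322, with 0 to 2 sterol and 0 to 1 fatty acid genes. Of the differences between experiments, KO-IEC minus KO-CAG organoids called 1 member with DESeq2 size factors, library size, no filter and at least 10 counts, crypts minus KO-CAG organoids 1 without the filter, and crypts minus KO-IEC organoids 6 without the filter. The causes of these moves were not tested. No called member changed sign under the alternatives run, while uncalled members did so in 48 fits. Counts limit Scd1 in crypts, which had 1 to 45 counts in a library.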
